A study of Homo sapiens with 8 samples.

Results

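The PLC/PRF/5 catalogue of m6A peaks was taken whole from the authors' deposited table: every row of its PLC/PRF/5 columns, a gene name beside a log2 fold change, was counted as 1 peak. It held 9516 peaks in 5475 genes, out of 19963 rows for both cell lines of the study. The remaining 10447 rows belong to HUH7, where each gene name had 1 row. Both lines are human and come from hepatocellular carcinomas, and PLC/PRF/5 carries integrated hepatitis B virus DNA. The study measured m6A by MeRIP-seq, in which RNA fragments bound by an antibody against N6-methyladenosine (the ip library) are sequenced beside unselected fragments (the input library). The PLC/PRF/5 control (PLC_CON) was the unedited parental line, and the PLC/PRF/5 knockout (PLC_CKO) was the same line with CSTF2 disrupted by CRISPR-Cas9. No other allele or agent is named for either group, and the labels do not say whether the knockout was 1 clone or a pool. Each of the 4 PLC/PRF/5 libraries (ip and input, control and knockout) was the only one of its kind. No value therefore has a replicate, no difference between the genotypes could be tested, and everything below describes 1 deposited comparison.

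N6-methyladenosine is added to mRNA in the nucleus by a complex around the METTL3 and METTL14 proteins, can be removed by the demethylases FTO and ALKBH5, and is bound by reader proteins, many of them with a YTH domain. It lies mostly in long internal exons and around stop codons, and it affects splicing, export, translation and decay of the transcripts that carry it. CSTF2 is the RNA-binding subunit of cleavage stimulation factor, which recognises the downstream element of a polyadenylation signal when the 3′ end of an mRNA is formed. In liver cancer cells m6A is studied for its effect on growth, metabolism and stress genes, and the design of the study asks how methylation changes when CSTF2 is lost.

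Some properties of the values limit what any gene's number can carry. The header names the quantity as a log2 fold change of a difference and does not say which genotype is the numerator, so signs are given as deposited and no value is read as gain or loss of m6A. In the authors' deposited table the PLC/PRF/5 values ran from -2.12 to 12.999 (TPM4), and each whole unit from -2 to 13 held between 599 and 655 peaks. A value near 10 was thus as frequent as a value near 1. The first quartile of the authors' deposited values was 1.72, the median 5.44 and the third quartile 9.19. By sign, 8188 peaks in the authors' deposited table were positive (86.0%) and 1328 negative, the background for every count by sign below. At a size of 1 or more, 79.7% of all peaks had a value of 1 or higher and 7.31% a value of -1 or lower, the background for every such count below. Depth is unknown, since no read count, p-value or peak position entered the analysis, and peaks of 1 gene could not be placed along its transcript. Rows of the PLC/PRF/5 columns were in no genomic order: 5.64% of neighbouring rows with a known chromosome shared it, against 99.5% in HUH7. Whether each value still stands beside the gene it was computed for was not tested, so every value given for a gene is only the one in its row. Which genes appear, and how often, does not rest on that pairing and is read first.

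Most genes in the catalogue had a single peak. There were 3310 genes with 1 peak, 60.5% of all genes listed, 1273 with 2 peaks, 468 with 3 and 204 with 4. The mean was 1.74 peaks per gene, and 2165 genes (39.5%) had 2 or more. At the far end 220 genes had 5 or more peaks and together held 1440 rows, 15.1% of the catalogue. No gene name and value occurred together more than once. That check relies on names and values standing in their own rows, so it cannot exclude copied rows if that pairing was lost.

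**Figure D1:**
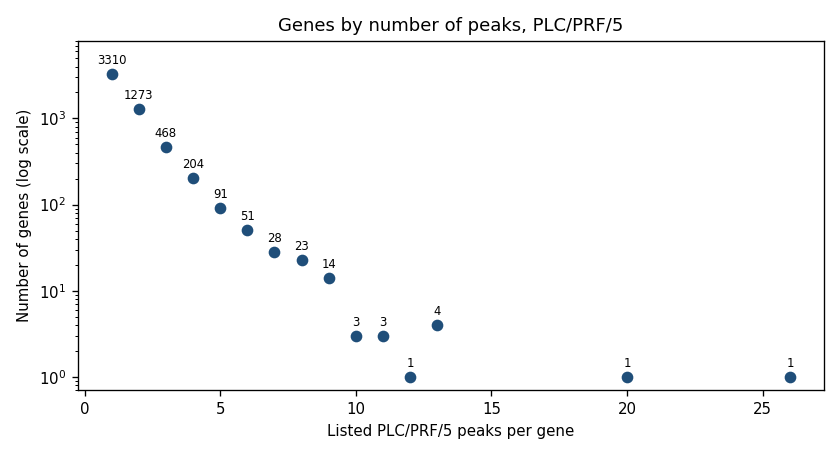
The number of genes (vertical, log scale) with each number of listed PLC/PRF/5 peaks per gene (horizontal), each point labelled with its count. The count drops from 3310 genes with 1 peak to 14 genes with 9, and AHNAK with 20 and DST with 26 lie apart from the rest.

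The genes with the most peaks were DST and AHNAK. DST, a plakin that ties intermediate filaments and microtubules to adhesion sites, had 26 peaks. AHNAK, a giant scaffold protein of the plasma membrane, had 20. AKAP9, a centrosome and Golgi anchor for protein kinase A, ASPM, a spindle pole protein, DYNC1H1, the heavy chain of cytoplasmic dynein, and FAT1, a giant cadherin, had 13 each. The centrosomal genes CEP350 and CEP290 had 12 and 10 peaks. MACF1, another plakin, UTRN, the utrophin gene, and APOB, the protein backbone of very low density lipoprotein, had 11 each. NEB, which encodes the giant actin-binding protein nebulin best known from muscle, had 10 peaks, as did the nuclear long noncoding RNA MALAT1. In all, 13 genes had 10 or more peaks and 14 genes had 9. The genes with 9 were the chromatin genes ASH1L and BPTF, the kinetochore gene CENPF, the proliferation marker MKI67, the corepressor NCOR1, the DNA repair kinase PRKDC, the imprinted noncoding RNA KCNQ1OT1, the nucleoporin RANBP2, the membrane linker RDX, the splicing factor SON, the kinase TAOK1, the ubiquitin ligase TTC3, the deubiquitinase USP9X, and ZDBF2. Of these 27 genes, 22 were also in the HUH7 list, as were 80.8% of all genes with 2 or more peaks. UTRN, CEP290, NEB, MALAT1 and KCNQ1OT1 were not in it.

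Peaks of the same gene carried widely different values, as did the rows of the whole column. In the authors' deposited table the 13 DYNC1H1 peaks lay between 4.42 and 12.4 with a median of 8.16, all of them positive. The 13 AKAP9 peaks lay lower in the authors' deposited table, from -1.91 to 7.42 with a median of 2.06, and 3 of them were negative. These differ in the middle of their range, and their ranges overlap between 4.42 and 7.42. The 26 DST peaks covered almost the whole scale of the authors' deposited table, from -1.71 to 11.94 with a median of 5.48. AHNAK covered -0.56 to 12.23 in the authors' deposited table, with a median of 6.61. The 9 PRKDC peaks had the lowest median of these 27 genes in the authors' deposited table, 0.90, and still reached 12.91. The 9 NCOR1 peaks had the highest, 10.22, with a lowest peak of -0.83 in the authors' deposited table. Both of these genes thus held peaks at opposite ends of the scale, and 21 of the 27 genes had peaks of both signs. Mixed signs occurred in 719 of the 2165 genes that had more than 1 peak. Of those genes 1273 had only 2 peaks, and both signs are likelier with more peaks. The 2 counts are therefore not a like comparison. In the authors' deposited table the range within a gene had a median of 4.35 with 2 peaks, 7.57 with 3 and 12.78 with 9 to 26. A range taken over more values is wider by its nature, so this rise is not read as a trait of genes with many peaks. The column as a whole filled its scale evenly. Whether rows of 1 gene are spread differently from rows of different genes was not tested.

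**Figure D2:**
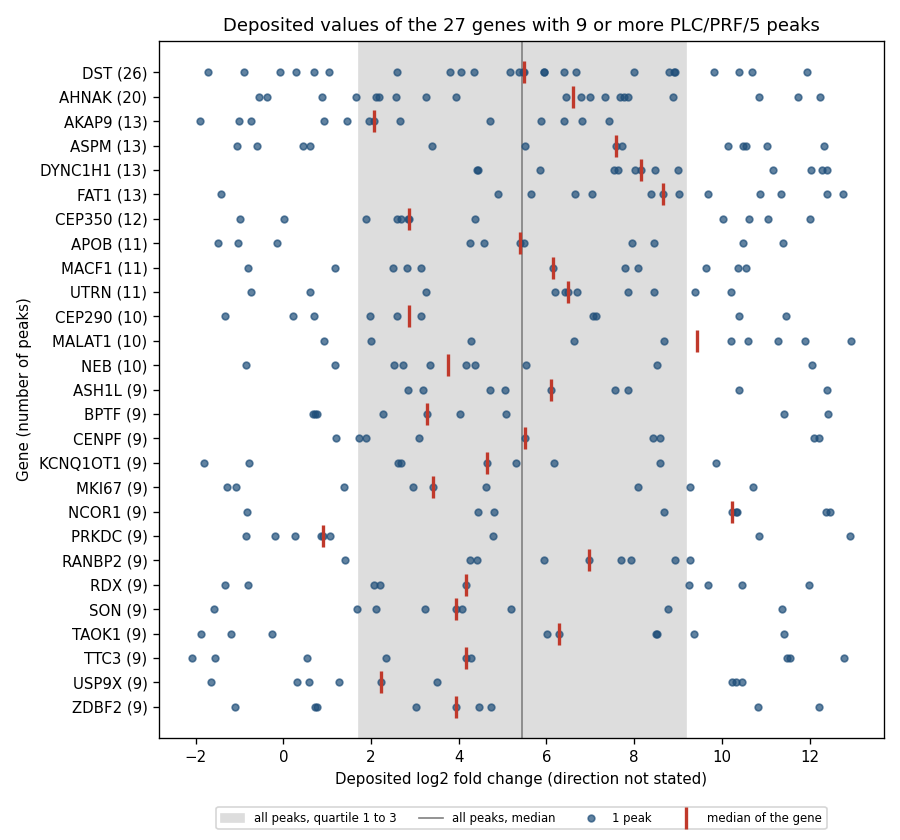
Deposited log2 fold change of each peak (horizontal, direction not stated) for the 27 genes with 9 or more peaks (vertical, number of peaks in brackets); each dot is 1 peak and each red bar the gene's median. The grey band spans the first quartile to the third of all 9516 peaks, 1.72 to 9.19, and the grey line their median of 5.44; the peaks of most genes reach beyond the band on both sides.

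Genes with more peaks were longer at the median. Gene span, the distance from the start to the end of a gene in RefSeq (GRCh38.p14), was used because no transcript or protein lengths were used here. Over protein-coding genes with 1 peak the median span was 34.7 kb, and it was 46.0 kb with 2 peaks, 53.2 kb with 3, 81.7 kb with 4, 92.9 kb with 5 to 8 and 151 kb with 9 to 26. All RefSeq protein-coding genes had a median of 24.1 kb. Across the 5131 listed genes with a span, which are not independent replicates, Spearman's rho of peak number and span was 0.253. Single genes departed from this order: APOB has 42.6 kb and 11 peaks, ASPM 62.5 kb and 13, and MALAT1 only 8.78 kb and 10, while UTRN has 568 kb and 11. The medians of the values were alike at both ends: in the authors' deposited table the median was 5.43 for peaks of genes with 1 peak and 5.37 for peaks of genes with 9 to 26.

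**Figure D3:**
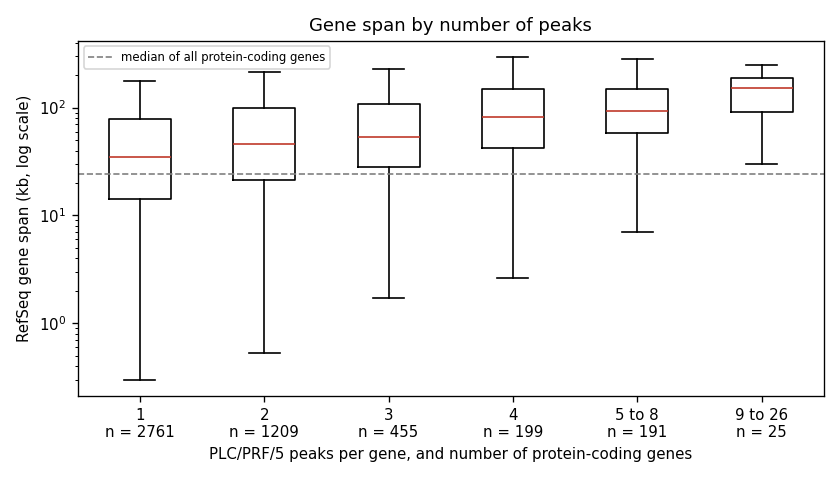
RefSeq gene span in kb (vertical, log scale) of the protein-coding genes with 1, 2, 3, 4, 5 to 8 and 9 to 26 listed peaks (horizontal, number of genes below each class). Boxes run from the first quartile to the third with the median in red, whiskers reach the last gene within 1.5 times the box height, and genes beyond them are not drawn; the medians climb from 34.7 kb to 151 kb, and the dashed line marks 24.1 kb for all protein-coding genes.

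By kind of gene, 4840 of the 5475 genes were protein coding (88.4%). That is 24.1% of the 20056 protein-coding genes in RefSeq, and the HUH7 list held 51.1% of them; each group below is read against these shares. Protein-coding genes had 1.81 peaks per listed gene and 43.0% of them had 2 or more. For the 108 lncRNA genes these figures were 1.31 and 13.9%. A further 178 names were pseudogenes, with 210 peaks, while the HUH7 list held 12 pseudogene names. The 344 names without a RefSeq match were mostly clone names of unnamed transcripts (323 names, 378 peaks).

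Groups of genes were taken from 16 lists of pathways and complexes. Together they held 817 genes, of which 548 (67.1%) had a peak and 648 (79.3%) were in the HUH7 list. These lists were chosen with earlier results of these data known. A share above 24.1%, or many peaks per gene, is thus a description of the list and not evidence about the pathway. The lists differed from each other all the same, from 93.9% of the centrosome and mitosis list to 33.3% of the long noncoding RNA list.

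Giant structural genes had the most peaks per gene. Of 35 plakin, spectrin and giant linker genes 22 had a peak, at 6.27 peaks per listed gene. Beside DST, AHNAK, MACF1, UTRN and NEB, the nuclear envelope spectrin SYNE2 had 6 peaks, with values of -1.92, 2.29, 3.05, 9.14, 11.45 and 12.82 in the authors' deposited table. Here 1 SYNE2 peak was near the bottom of the scale and 3 were above 9. Members without a peak included TTN, DMD, the filamins FLNA and FLNC, vinculin (VCL) and the ankyrins ANK1 and ANK3. All of these but ANK1 were in the HUH7 list, which held 31 of the 35.

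Cell division genes had the highest share of any list. Of 49 genes of the centrosome, kinetochore and mitosis list 46 had a peak, at 4.37 per listed gene, and only the checkpoint kinases BUB1 and TTK and the cohesin gene STAG1 had none. HUH7 listed 35 of the 49, so here the shorter PLC/PRF/5 list held more members. CENPE, the kinetochore kinesin, had 7 peaks, from 0.71 to 4.51 with a median of 1.28 in the authors' deposited table, which keeps it in the lower part of the scale. SMC4, a condensin subunit that HUH7 did not list, had 7 peaks with values of -0.29, -0.07, 2.84, 2.90, 8.67, 9.24 and 11.18 in the authors' deposited table. Of 32 dynein, kinesin and microtubule genes 24 had a peak. The mitotic kinesin KIF11 had peaks at -1.75, 3.75, 12.18 and 12.21 in the authors' deposited table, and KIF5B, the heavy chain of conventional kinesin, had values of -1.05, 9.07, 9.50, 11.33 and 12.73 there. Both kinesins had 1 negative peak and at least 2 peaks above 9.19, the third quartile. The dynein and kinesin list had the highest median of any list with at least 20 peaks, 7.02 in the authors' deposited table.

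Chromatin genes were mostly present. Of 75 modifiers and remodellers 67 had a peak and 72 were in HUH7. The histone methyltransferase KMT2A had 6 peaks, with values of 2.38, 2.45, 6.85, 8.09, 8.87 and 11.64 in the authors' deposited table, all positive. ATRX, a remodeller of heterochromatin, had 8, from -1.70 to 12.02 in the authors' deposited table, with 2 of them negative. The chromodomain helicase CHD7 had 7 peaks, the highest at 12.56 in the authors' deposited table. These genes had 2.94 peaks per listed gene, and 45 of the 67 had more than 1.

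**Figure D4:**
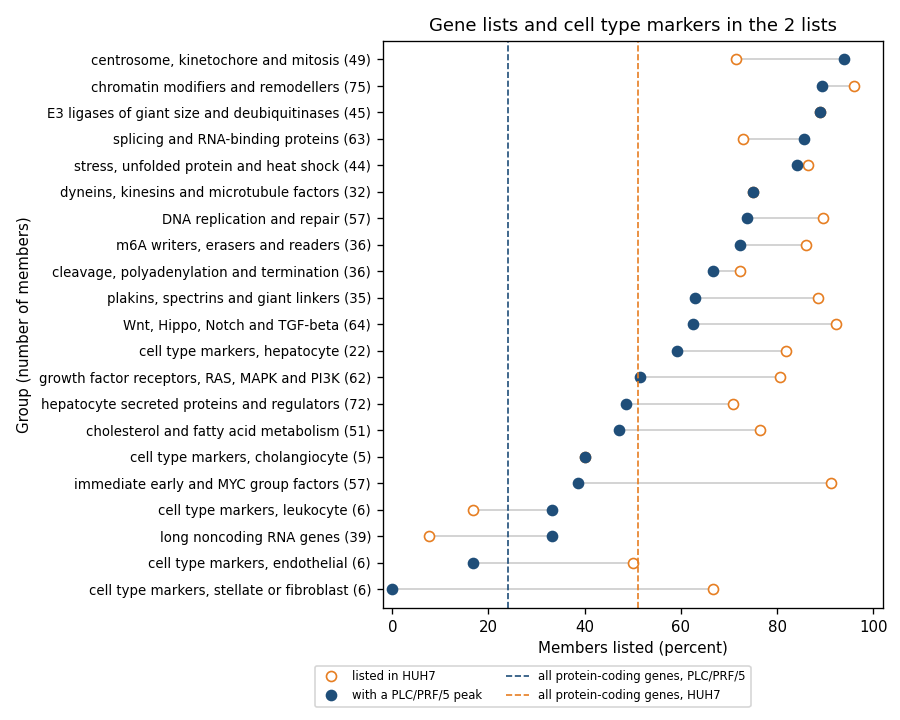
Share of each gene list and cell type marker list (vertical, number of members in brackets) that had a PLC/PRF/5 peak (filled points) or was in the HUH7 list (open points), in percent. Dashed lines mark all RefSeq protein-coding genes, 24.1% in PLC/PRF/5 and 51.1% in HUH7, and an open point is hidden where both shares are equal; the immediate early and MYC list has one of the widest gaps, 38.6% against 91.2%.

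The m6A machinery itself was listed in large part. Of 36 writers, erasers and readers 26 had a peak, with 58 peaks in all, and HUH7 listed 31. Among the writers, METTL14, WTAP, VIRMA, ZC3H13, RBM15, RBM15B and CBLL1 had peaks, and METTL3, the catalytic subunit, had none. ZC3H13, a zinc finger subunit of the writer complex, had the most, with values of -0.08, 5.11, 6.44, 7.56, 7.79 and 11.81 in the authors' deposited table. METTL14, the RNA-binding partner of METTL3, had 3 values, -0.04, 0.95 and 12.82 in the authors' deposited table. WTAP, which holds the writer complex in nuclear speckles, had values of -0.69 and 4.65 in the authors' deposited table. A peak below 0 occurred in each of these 3 genes, close to 0 in ZC3H13 and METTL14, and also in VIRMA and RBM15B. The single peaks of CBLL1 (7.9) and RBM15 (8.99) in the authors' deposited table were positive. For comparison, 1328 of all 9516 peaks were negative, and 719 of the 2165 genes with more than 1 peak had both signs. Both signs are likelier in genes with more peaks. Of the erasers, ALKBH5 had 1 peak, at 6.48 in the authors' deposited table, and FTO had none. Among readers, the nuclear YTHDC1 had 4 peaks, at -1.04, -0.03, 0.15 and 8.89 in the authors' deposited table, while YTHDF1 and YTHDC2 were not listed. The reader IGF2BP2, which stabilises bound mRNAs, had values of -0.92, 6.05, 7.5 and 10.87 in the authors' deposited table. G3BP1, a stress granule protein bound less well to methylated RNA, had values of -1.24, 2.49, 7.56 and 12.26 there. Over the list, 39 of 58 peaks in the authors' deposited table were at 1 or higher (67.2%, against 79.7% of all peaks) and 6 at -1 or lower. This share was the lowest of the 17 gene and marker lists with at least 20 peaks, so it is an extreme picked from many.

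CSTF2, the edited gene, lies on chromosome X at 100820391 to 100841520 (GRCh38.p14) and had 1 peak, at -0.50 in the authors' deposited table. This value lies below the first quartile of all peaks. It describes an ip and input comparison whose position in the gene was not analysed here, so it does not check the knockout, and no expression value per library was used. CSTF2T, an intronless paralogue on chromosome 10 (51695486 to 51699595), had 1 peak at 2.45 in the authors' deposited table. CSTF3, which holds the complex together, had peaks at 0.65 and 8.27 in the authors' deposited table, and CSTF1 had no peak. CSTF2 and CSTF2T are close in sequence, and how the authors' counting split reads between them is not given in the sources used here.

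Of 36 genes for cleavage, polyadenylation and termination 24 had a peak and 26 were in HUH7. Members of the cleavage and polyadenylation specificity factor were split: CPSF2 had values of 0.58, 6.50 and 7.29 in the authors' deposited table, while CPSF1, CPSF3 and CPSF4 had no peak, although WDR33 and FIP1L1 did. Of the PAF1 elongation complex, CTR9 had values of 3.57, 3.67, 6.95 and 12.74 in the authors' deposited table. LEO1, from the same complex, had values of -1.18, 1.34, 5.10 and 9.81 in the authors' deposited table. Both have 4 peaks spread over most of the scale, with CTR9 the higher in each rank. CASP8AP2, a histone mRNA processing factor, and CPEB4, a cytoplasmic polyadenylation factor, had 6 peaks each. The list's median in the authors' deposited table, 3.67, was the lowest of the 17 gene and marker lists with at least 20 peaks.

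Splicing and RNA-binding genes were listed more often than in HUH7: 54 of 63 had a peak, against 46. SRRM2, a scaffold of nuclear speckles, had 8 peaks, all positive, from 3.42 to 11.66 with a median of 7.47 in the authors' deposited table. HNRNPU, a nuclear matrix RNA-binding protein, also had 8, from 0.02 to 9.98 with a median of 7.56 in the authors' deposited table. SON, another speckle scaffold, had 9 peaks, from -1.57 to 11.38 with a median of 3.93 in the authors' deposited table. The 3 genes have similar numbers of peaks and overlapping ranges.

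Hepatocyte genes were listed to a smaller extent, 35 of 72, against 51 in HUH7. CP, the copper-carrying plasma protein ceruloplasmin, had 8 peaks, with values of -1.63, -1.61, -1.30, 0.48, 2.05, 3.49, 11.28 and 12.69 in the authors' deposited table. These fall into a low majority and a pair near the top. CPS1, the entry enzyme of the urea cycle, had 7 peaks that spanned 0.14 to 12.23 in the authors' deposited table, and was not in HUH7. F5, coagulation factor V, had 6, at -1.29, 6.46, 9.16, 10.27, 10.53 and 11.18 in the authors' deposited table. ONECUT2, a transcription factor of liver development, had values of -1.88, 1.60, 7.26, 9.65, 10.19 and 10.63 there. F5 and ONECUT2 thus each had 1 peak low on the scale and several high on it. The fibrinogen chain genes all had peaks: FGA at -1.31 and 11.94, FGB at -0.78 and 7.04, and FGG at 6.53, 9.87 and 10.80 in the authors' deposited table. Albumin (ALB) had 1 peak at 8.04 in the authors' deposited table. Genes of mature hepatocyte function such as CYP3A4, CYP2E1, TAT, SLC10A1 and ABCB11 had no peak.

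Of 22 hepatocyte markers 13 had a peak (59.1%, against 24.1% of all protein-coding genes), among them ALB, APOA1, APOA2, APOB, SERPINA1, HNF4A and GPC3. AFP, TTR, APOH and CEBPA had none. Of markers of other liver cells, the cholangiocyte list had 2 of 5 (KRT7 and SOX9), the endothelial list 1 of 6 (PECAM1), the stellate or fibroblast list 0 of 6 and the leukocyte list 2 of 6 (CD68 and LYZ). The cholangiocyte (40.0%) and leukocyte (33.3%) shares were above 24.1% too. HUH7 listed 18 hepatocyte, 2 cholangiocyte, 3 endothelial, 4 stellate or fibroblast and 1 leukocyte marker. Listed names therefore do not identify a cell type here. A listed name shows that a peak was assigned to the gene, not how strongly it was expressed. The part of other liver cells in any result was not tested.

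Genes of the immediate early and MYC list had a PLC/PRF/5 peak in 22 of 57 cases (38.6%, against 24.1% of all protein-coding genes). HUH7 listed 52 (91.2%). The list holds transcription factors and also other genes, such as DUSP6, SOCS2 and MCL1. FOS, FOSB, JUNB, EGR1, ATF3 and KLF6 were without a peak. MYC had 1, at 12.69 in the authors' deposited table, and JUN had values of 3.50 and 9.62 there. KLF5, a factor of epithelial growth, had values of 2.23, 2.93, 4.76 and 11.42 in the authors' deposited table, and SOX4, a factor of progenitor cells, values of 8.38, 9.42 and 11.27. The SOX4 peaks all lay above the 5.44 median of the catalogue. Members with a peak had 1.59 peaks each, the fewest of the 16 lists.

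Signalling genes were listed at intermediate shares. Of 62 receptor, RAS, MAPK and PI3K genes 32 had a peak. MET, the receptor of hepatocyte growth factor, had values of 3.87, 4.03, 9.15 and 9.30 in the authors' deposited table, and the insulin receptor INSR values of 5.54, 11.17 and 12.58. Both receptors had positive peaks only. SOS1, a RAS exchange factor, had a pair of peaks on each side of 0, at -1.48, -0.67, 9.44 and 9.60 in the authors' deposited table. Of 64 Wnt, Hippo, Notch and TGF-beta genes 40 had a peak, against 59 in HUH7. The Wnt co-receptor LRP6 had 7 peaks, at -0.98, -0.95, -0.58, 6.12, 8.31, 11.87 and 12.27 in the authors' deposited table. APC, which marks beta-catenin for destruction, had values of -1.51, 2.38, 8.13 and 8.64 there. FAT1 had 13 peaks, from -1.43 to 12.75 with a median of 8.66 in the authors' deposited table. All 3 genes had peaks of both signs.

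DNA replication and repair genes had a peak in 42 of 57 cases. BRCA2, a gene of homologous recombination, had values of 1.49, 1.78, 1.83, 5.44, 6.27, 9.79 and 10.14 in the authors' deposited table. CLSPN, an adaptor of the replication checkpoint, had peaks close together, at -0.52, -0.42 and -0.08 in the authors' deposited table. Genes with 3 peaks had a median range of 7.57 in the authors' deposited table. CLSPN was named after its values were seen, among 468 genes with 3 peaks, so this closeness is not read as its trait. RIF1, RAD50 and REV3L had 7, 6 and 7 peaks. Of 45 giant ubiquitin ligases and deubiquitinases 40 had a peak, the same number as in HUH7, among them USP9X with 9 peaks and TRIP12 with 7.

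Genes of cholesterol and fatty acid metabolism were listed in 24 of 51 cases, against 39 in HUH7. SCD, the desaturase that makes oleate, had values of 6.51, 7.61, 10.03 and 11.96 in the authors' deposited table. IDI1, an isomerase of the mevalonate pathway, had values of -0.39, 6.36, 10.45 and 12.05 there, and ACSL3, which activates fatty acids, values of 2.39, 8.37, 10.30 and 12.32. The 3 genes each had a majority of peaks above 6. SQLE and INSIG1 had peaks, and FASN, ACACA, SREBF1, SREBF2 and SCAP had none. Of the list's 46 peaks in the authors' deposited table, 43 were at 1 or higher (93.5%, against 79.7% of all peaks), and none was at -1 or lower. This share was the highest of the 17 gene and marker lists with at least 20 peaks, so it is an extreme picked from many.

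Of 44 genes of the stress and unfolded protein response 37 had a peak. The chaperone HSPA8 had values of 2.36, 4.95, 7.70 and 9.11 in the authors' deposited table, and HSP90AA1 values of 2.44, 6.52, 12.03 and 12.14. HSP90B1, the HSP90 of the endoplasmic reticulum, had peaks at 3.48, 3.69, 11.44 and 11.85 in the authors' deposited table. All peaks of these 3 chaperone genes were positive, and both HSP90 genes had a pair above 11.

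The sequence below is shown because MIR3652 was the only microRNA gene in the catalogue and its name shares its place with HSP90B1. The MIR3652 hairpin lies on chromosome 12 at 103930425 to 103930555 (GRCh38.p14, + strand), inside the span of HSP90B1, 103930410 to 103947926. Its 1 peak had a value of 5.43 in the authors' deposited table, none of the 4 HSP90B1 values. The mature RNA (RefSeq, chr12:103930425-103930442), with its seed of bases 2 to 8 in capitals, is:
hsa-miR-3652: cGGCUGGAggugugagga
Its first base is also the first base of the hairpin. Fragments of poly(A) RNA from this interval could belong to either gene, and how the authors assigned them is not given in the sources used here.

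Several other names cover the same DNA or near-identical RNA. The 9 UGT1A genes, for enzymes that attach glucuronic acid to compounds such as drugs, are alternative first exons on chromosome 2 that all end at 233773300. Each had exactly 1 peak, and their values differed, from -1.50 for UGT1A9 and -1.05 for UGT1A6 to 10.61 for UGT1A5 and 10.85 for UGT1A3 in the authors' deposited table. The other 5 lay between 3.22 (UGT1A7) and 9.0 (UGT1A8) in the authors' deposited table. Whether these peaks lie in the exons that the 9 genes share was not tested. Of 130 pseudogene names built on a protein-coding parent symbol, 113 had a parent with a peak. HMGB1, a chromatin protein gene with 1 peak, had 9 pseudogenes in the catalogue, and NPM1, RPL13A and ST13 had 4 each. Of 51 antisense, divergent or intronic transcripts with a named neighbour, 37 neighbours had a peak, and of 22 readthrough genes 21 had 1 or both component genes listed. Values at such names are uncertain, because reads could have been split between them.

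Noncoding and mitochondrial genes were few. Of 39 long noncoding RNA genes 13 had a peak, and 3 were in HUH7. MALAT1 had 10 peaks, from 0.93 to 12.94 with a median of 9.44 in the authors' deposited table. TUG1 had values of 2.48, 6.18, 8.42 and 12.54 in the authors' deposited table, and NORAD, which binds Pumilio proteins, values of 4.11 and 4.86. All peaks of these 3 RNAs were positive. NEAT1, the scaffold of paraspeckles, had 1 peak at 5.24 in the authors' deposited table. The noncoding genes H19, MEG3, HULC, PVT1 and GAS5 had no peak, nor did any of 29 SNHG snoRNA host genes. Only 26 of 2304 LINC genes had one. Of the 13 protein genes of mitochondrial DNA 7 had a peak, against 12 in HUH7. MT-CO1 had values of 1.29 and 12.62, and MT-ND2 values of 10.89 and 11.78, in the authors' deposited table, while the single MT-CYB peak was at -1.75. MT-ND6 had values of -0.85 and 2.37 in the authors' deposited table. The rRNAs MT-RNR1 and MT-RNR2 had 1 peak each, at 11.98 and 3.50 in the authors' deposited table.

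Gene families named by a shared stem gave a finer picture of which genes were listed. C2H2 zinc finger genes (ZNF) differed most in number between the lines among the families counted: 142 of 517 (27.5%) had a PLC/PRF/5 peak and 409 (79.1%) were in HUH7. All but 4 of the 142 were in HUH7 too, against 80.5% of all protein-coding genes with a PLC/PRF/5 peak. ZNF292 led with 8 peaks that spanned 2.38 to 9.98 in the authors' deposited table, all positive, followed by ZNF638 with 7 and ZNF518A with 6. The related BTB zinc finger genes (ZBTB) had 22 of 42 in PLC/PRF/5 and 39 in HUH7. Histone methyltransferases and demethylases (KMT, KDM and SETD) had 25 of 40, all of which HUH7 also listed, against the same 80.5%.

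Cytosolic ribosomal protein genes, which are short and highly expressed, went the other way. Of 87 RPL and RPS genes 41 had a PLC/PRF/5 peak (47.1%) and 28 (32.2%) were in HUH7, with 27 in PLC/PRF/5 alone. Most had 1 peak, at a mean of 1.32 per listed gene. RPL37 had values of 7.03, 8.35 and 10.14 in the authors' deposited table, RPS18 values of 1.60, 11.29 and 12.10, and RPL13A values of 2.03, 4.88 and 10.68. All were positive, as were 51 of the family's 54 peaks, where 86.0% of all peaks in the catalogue were positive. Many RPL and RPS genes have processed pseudogenes of near-identical sequence, so their peaks are uncertain too. Mitochondrial ribosomal protein genes were at 30 of 77 in PLC/PRF/5 and 54 in HUH7.

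RNA-handling and centrosome families were among those with the highest shares. The CEP family of centrosomal proteins had 28 of 39 genes with a peak (71.8%), SR and hnRNP proteins 27 of 38, DEAD and DEAH box helicases 33 of 54, RBM proteins 27 of 45 and translation initiation factors (EIF) 30 of 56. Among the helicases, DDX17, which acts in splicing and microRNA processing, had values of 3.46, 8.93, 10.16 and 11.69 in the authors' deposited table. EIF4G3, a scaffold of the initiation complex, had 6 peaks, from 4.33 up to 12.998 in the authors' deposited table, all positive. Of 7 SMC genes, the rings of cohesin and condensin, 6 had a peak, and of 11 CHD helicases 9. Chaperones of the HSP and DNAJ families had 40 of 72.

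Other families had shares below 24.1%. Solute carriers had 67 of 386 (17.4%), numbered transmembrane proteins (TMEM) 31 of 233 (13.3%), orphan and adhesion receptors 9 of 106, cytochromes P450 4 of 56 and keratins 4 of 55. Other membrane families were nearer the background, with ABC transporters at 26.1%, integrins at 26.9% and P-type ATPases with 9 of 36 genes. In the SLC family, the amino acid carrier SLC38A2 had values of -1.20, -0.76, 1.06 and 5.22 in the authors' deposited table, and the zinc importer SLC39A10 values of 3.07, 4.61, 8.90 and 12.69. SLC38A2 was thus low on the scale and SLC39A10 spread over it. A single collagen gene of 44, COL5A2, had a peak, at 0.79 in the authors' deposited table, whereas HUH7 listed 22. Olfactory receptors, which are silent in most tissues, were listed in 1.02% of cases, 4 genes in all. Histone genes, whose replication-dependent mRNAs end without a poly(A) tail, had 5 of 85, against 25 in HUH7.

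**Figure D5:**
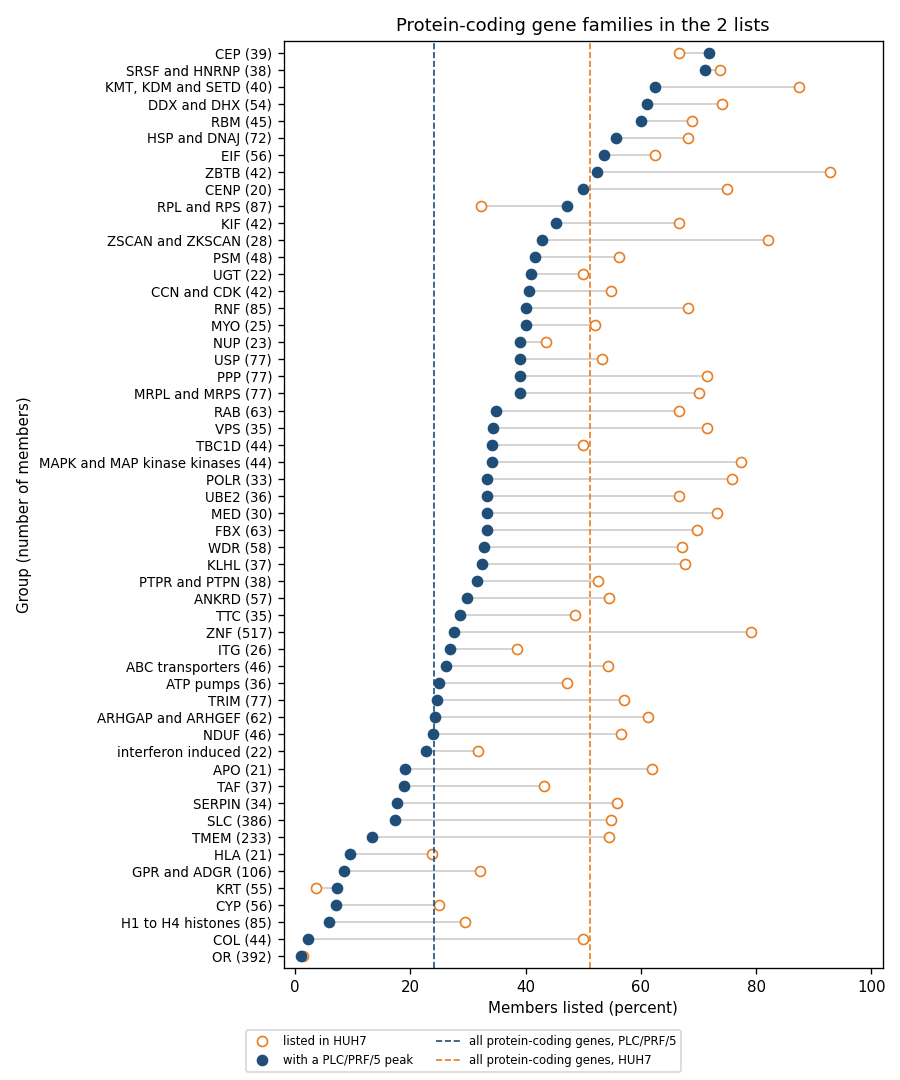
Share of members with a PLC/PRF/5 peak (filled points) or in the HUH7 list (open points), in percent, for the 54 protein-coding families with 20 or more members (vertical, number of members in brackets). Dashed lines mark all RefSeq protein-coding genes, 24.1% and 51.1%; most families lie to the right in HUH7, while CEP, RPL and RPS, and KRT lie to the right in PLC/PRF/5.

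The share of protein-coding genes with a peak differed between chromosomes. It was lowest on chromosome 19, 13.6%, followed by chromosome 11 at 18.1% and chromosome 22 at 18.2%. It was highest on chromosome 18 at 34.4%, chromosome 13 at 32.0% and chromosome 6 at 30.2%, leaving out mitochondrial DNA. Median gene span was 14.3 kb on chromosome 19 and 51.3 kb on chromosome 18. In HUH7 the share on these 2 chromosomes was nearly equal, 55.8% on chromosome 19 and 54.4% on chromosome 18. The part of gene span in the PLC/PRF/5 difference was not tested.

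Compared by name, 3929 genes were in both lists, which is 71.8% of the PLC/PRF/5 genes and 37.6% of the longer HUH7 list. Among protein-coding genes the overlap was 3895, 80.5% of PLC/PRF/5 and 38.0% of HUH7. Among other genes and unmatched names it was 34 of 635 PLC/PRF/5 names, 5.35%. The share of protein-coding genes also listed in HUH7 was 77.9% for genes with 1 peak, 90.1% for genes with 5 to 8 and 88.0% for genes with 9 to 26. Median gene span was 44.4 kb for genes in both lists, 39.6 kb for the 945 in PLC/PRF/5 alone, 24.7 kb for the 6353 in HUH7 alone and 15.7 kb for the 8863 in neither. After UTRN, CEP290 and NEB, the genes with the most peaks that HUH7 did not list were BDP1, a subunit of the TFIIIB initiation factor, and GFPT1, the first enzyme of the hexosamine pathway, with 8 each. CPS1, the centriolar satellite gene PCM1 and SMC4 followed with 7 each. The lists may have been filtered differently, so absence from one does not show absence of the mark.

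Medians of the deposited values lay on both sides of the catalogue's own. Over the 17 gene and marker lists with at least 20 peaks, the median in the authors' deposited table ran from 3.67 to 7.02, and over 37 families from 2.58 (protein tyrosine phosphatases, PTPR and PTPN) to 9.33 (P-type ATPases). The ATPase family had 20 peaks and the phosphatase family 24, so these extremes rest on few values. Among the phosphatases, PTPN11, the SHP2 gene, had values of -1.46, 1.99, 4.70 and 5.86 in the authors' deposited table. Among the ATPases, ATP10D, a flippase, had values of -1.86, 2.09, 3.32, 10.11 and 12.06 there. Both genes had a negative peak and span much of the scale. Peaks of genes in the HUH7 list had a median of 5.48 in the authors' deposited table, and peaks of genes outside it 5.35. Values close to the lowest in the authors' deposited table belonged to ITGB1 (-2.119), the integrin beta 1 chain, and ZNF646 (-2.115). The highest belonged to TPM4 (12.999), a tropomyosin, SETD1B (12.999), a histone methyltransferase, and EIF4G3 (12.998) in the authors' deposited table. ITGB1 also had peaks at -0.59, -0.11 and 2.91 in the authors' deposited table, so its other peaks were low as well.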

How the data were processed

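m6A MeRIP-seq libraries (ip and input) of control and CSTF2-knockout PLC/PRF/5 cells were compared by the authors, 1 library each. Per the labels' protocols, poly(A) RNA was enriched on oligo(dT) beads, cut to fragments and immunoprecipitated before cDNA synthesis from random hexamers. FastQC 0.12.0 and build hg38 are named per the submitters' processing notes; the aligner, peak caller, differential test, scaling and filters were not given in the sources used here. The values are log2 fold changes, per the file headers, as the authors deposited them. No count or depth was used.

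Names were brought to RefSeq symbols (GRCh38.p14): of 5477 names, 4966 were current symbols, 158 synonyms, 9 mitochondrial aliases and 344 unmatched, including 8 that read as calendar dates. Peaks per gene, list and family shares and medians were computed with Python 3.11.15 and pandas 2.3.3, and checked on simulated data. Members, the 16 gene lists, the 5 marker lists and 63 families were chosen with earlier results of these data known, and family patterns were tidied after the files were seen. Genes were named as the 20 with the most peaks, up to 5 members per group, CSTF2 and CSTF2T, and 3 extremes at each end; genes tied at 9 peaks and others named for their role were chosen after their values were seen. Gene span replaced the planned protein length. Alternatives were names as given, a size of 1 or more, gene-level values, and subsets of genes. Some genes that the naming rule selects are not reported here.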

Additional observations from a re-analysis of the deposited data

How the results depend on the processing

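No paired analysis was possible because each group holds 1 library, and for the same reason no library could be left out. The number of genes with a peak (5475) was 5006 when only values of size 1 or more were kept, and the number with 2 or more peaks (2165) was then 1834. The median of the authors' deposited values was 7.42 with each gene at its peak of largest size, against 5.44 over peaks. The positive share was 91.6% among peaks of size 1 or more, against 86.0%. The share of gene list members with a peak was 74.7% among members listed in either line, against 67.1%. The share of genes also in HUH7 was 80.8% among genes with 2 or more peaks, against 71.8%. The cause of these shifts was not tested. The relation of peak number to protein length was not run, because no protein table was used; with gene span, rho was 0.249 without the 20 genes with the most peaks, against 0.253. Unknown depth, unknown peak positions and the missing replicates limit every value.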

Other observations

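Rows of the PLC/PRF/5 columns did not follow the genome. Of 8720 pairs of neighbouring rows whose genes had a chromosome, 492 (5.64%) were on the same chromosome, and 4 pairs held the same gene. In the HUH7 columns of the same table, 10081 of 10129 pairs (99.5%) were on the same chromosome. Whether the values and gene names of the PLC/PRF/5 columns still belong together row by row was not tested, and the values given for single genes hold only as far as they do. The 8 names that read as calendar dates held 13 peaks; the name 7-Mar had 4 of them, at 1.21, 4.96, 6.10 and 10.88 in the authors' deposited table, and 7-Sep had 3, at 0.12, 2.06 and 9.40. They were kept under the names given and assigned to no gene.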
